A study of Mus musculus with 2 samples.

Results

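The probes described here belong to 9 non-receptor tyrosine kinases: Btk, Tec, Bmx and Txk of the Tec family, Syk, and Src, Yes1, Fyn and Lyn of the Src family. They were chosen by name, as Btk and its relatives, and a probe was taken where the RefSeq accession in its spot table leads to 1 of these symbols. This gave 12 probes of 39417 on the array and 9 genes of 20653 named genes. Of the 12 probes, 7 were well above background on both arrays, 1 on the FTO array only, and 4 on neither array.

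The RNA came from MIN6 cells, a mouse insulinoma line from transgenic C57Bl/6 mice that makes insulin, at passages 15 to 20. One culture had received the lentivirus PLVX-IRES-ZsGreen-mFTO, which carries FTO, an RNA demethylase, together with the green fluorescent protein ZsGreen. The other had received the empty vector PLVX-IRES-ZsGreen, so both had been through virus, polybrene and ZsGreen. The labels do not say what share of the cells carried the virus, and the cells are 1 tumour line and not islets. Each condition had 1 one-color Agilent array, so no value below has a replicate check and no test was possible. The number of arrays limits the precision.

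Both arrays are called here by their labels, the FTO array and the control array. For the former the title and the vector name FTO, while its treatment label reads FTP overexpression. The arrays differed little in overall detection, with 82.0% of probes well above background on the FTO array and 84.8% on the control array. The median probe had 1.27 times the signal on the FTO array before normalization. The transduced gene gives no check of the labels here, because Fto had signals of 7301 with FTO and 5179 with the empty vector, which left 0.06 on the log2 scale after normalization (spot error 0.20). In these files, all directions below therefore rest on the labels. All 10 beta cell markers were well above background on both arrays, with lowest signals of 6528 and 5179. The arrays also had areas with lost signal, 6 of 35 blocks of spots with FTO and 2 of 35 in the control. The spots of Btk probe 1, Bmx probe 2 and Fyn lay in such blocks on the FTO array, and no spot of the 9 kinases lay in such a block on the control array.

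These kinases act in a row below many receptors. Src family kinases are held at the inner face of the membrane and phosphorylate the tails of receptor chains, Syk docks on these phosphorylated tails, and Tec family kinases are switched on at the membrane by Src family kinases and Syk. Btk, Tec and Bmx are drawn there by a domain that binds phosphoinositides, which Txk lacks. Btk is best known from B cells, where it activates phospholipase C gamma and, through it, calcium and NF-κB signaling, and where its loss impairs B cell development. In beta cells, Src family kinases are known for a part in glucose-stimulated insulin secretion.

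Btk and Src are the kinases whose signal differed most between the arrays, and Tec is the close relative of Btk whose probes were detected on both. The promoter windows of these 3 genes are shown to let their sequence be compared, each 300 bases long and running from 250 bases before the start of the gene to 50 bases after it. They were taken from RefSeq on GRCm38.p6 and are read 5′ to 3′ on the strand of the gene. The windows are chrX:134583091-134583390 (minus strand) for Btk, chr5:72868399-72868698 (minus strand) for Tec and chr2:157424043-157424342 (plus strand) for Src. Capitals mark each CG dinucleotide, the base pair step that carries DNA methylation.
Btk: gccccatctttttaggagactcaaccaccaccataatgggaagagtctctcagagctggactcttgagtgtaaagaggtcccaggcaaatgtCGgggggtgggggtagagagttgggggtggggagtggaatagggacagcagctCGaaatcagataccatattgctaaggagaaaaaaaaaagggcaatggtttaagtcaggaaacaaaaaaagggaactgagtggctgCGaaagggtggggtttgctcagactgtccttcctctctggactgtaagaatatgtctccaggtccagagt
Tec: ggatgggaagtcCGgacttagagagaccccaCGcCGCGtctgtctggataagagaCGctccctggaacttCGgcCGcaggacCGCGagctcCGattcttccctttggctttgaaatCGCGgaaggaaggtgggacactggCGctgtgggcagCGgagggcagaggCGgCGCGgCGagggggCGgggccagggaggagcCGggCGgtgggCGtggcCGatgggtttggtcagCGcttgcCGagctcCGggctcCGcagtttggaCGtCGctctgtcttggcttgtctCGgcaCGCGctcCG
Src: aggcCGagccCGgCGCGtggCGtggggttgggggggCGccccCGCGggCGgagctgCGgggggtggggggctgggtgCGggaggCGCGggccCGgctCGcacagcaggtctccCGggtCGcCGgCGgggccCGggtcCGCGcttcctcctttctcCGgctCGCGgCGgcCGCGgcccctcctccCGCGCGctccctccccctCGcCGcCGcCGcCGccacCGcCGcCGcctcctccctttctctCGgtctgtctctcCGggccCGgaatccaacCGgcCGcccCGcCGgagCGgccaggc

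Btk differed from Tec and Src in base composition at its start. Its window held 3 CG dinucleotides, against 33 in the window of Tec and 47 in that of Src. The median of 32851 windows was 7, and 76.7% of all windows held as many CG dinucleotides as that of Btk or more, against 8.56% for Tec and 1.44% for Src. The other kinases fell on both sides. Bmx and both windows of Txk held 4 each, like Btk, while Yes1 held 42 and Fyn 31. Syk had one window with 31 and a second with 2. Lyn had no entry in the table, so 8 of the 9 genes are covered by 10 windows.

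The motif GAGGAA, the core bound by the blood cell transcription factor PU.1, was searched on both strands, where it reads TTCCTC on the opposite strand. It occurred once each in the windows of Btk and Src and in the second window of Syk, and in none of the other 7 windows. Of all windows, 28.3% held it, so a match is common and describes letters, not a bound site. Spi1, the gene of PU.1, had signals of 15.2 with FTO and 15.5 in the control, both just above background, and its log2 difference was -0.03. No methylation or binding was measured in these cells.

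**Figure D1:**
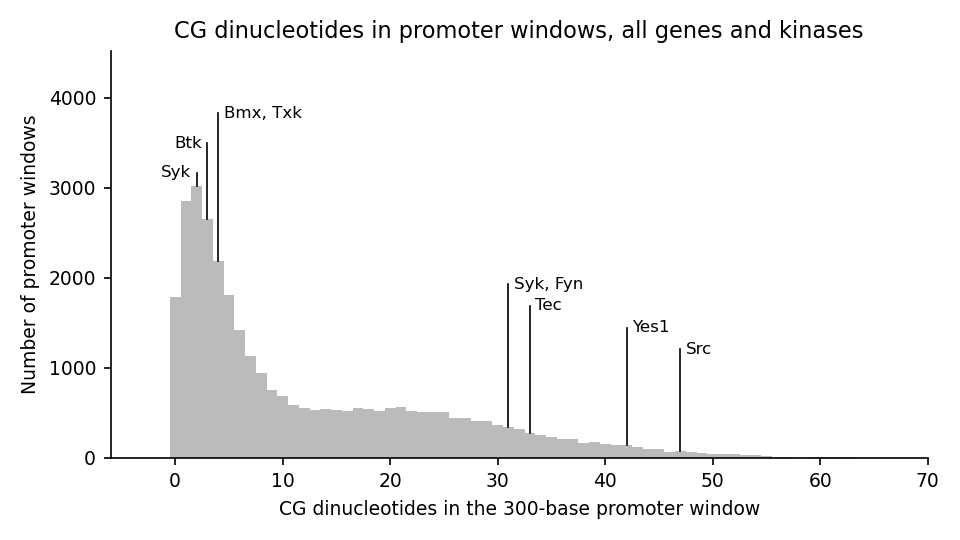
Number of CG dinucleotides per 300-base promoter window (x axis) against the number of windows (y axis) for all 32851 windows, with lines at the windows of the kinases. Btk, Bmx, Txk and one window of Syk stand at 2 to 4, while Fyn, Tec, Yes1, Src and the other window of Syk stand at 31 to 47.

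Btk had 2 probes, of which 1 was detected. Btk probe 1 (A_55_P2158498, NM_013482) had a signal of 21.9 on the FTO array and 6.48 on the control array. Signals are given here in intensity units after background subtraction and before normalization between arrays. The probe was well above background with FTO only, so its control signal is a bound and not a level. After quantile normalization its values were 4.42 and 2.65 on the log2 scale, a log2 difference (FTO minus control) of 1.77 (spot error 0.56). Set against the lowest signal well above background on the control array, Btk was 2.02-fold higher with FTO. That lowest signal is the lowest of any detected probe, so this bound is not a strict minimum. This bound is just past 2-fold, and it was 1.80-fold with cyclic loess and 1.53-fold with 75th percentile scaling. With normexp the control value of the probe was not below that lowest detected value, and the difference as it stood was 1.38-fold.

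The raw spots show how few units this rests on. The median pixel of the Btk probe 1 spot read 78 over a local background of 33 with FTO, a net of 45, and 53 over 34 in the control, a net of 19. The spread of probes printed 10 times at a like signal, combined from within each array, gave an SD of 0.65 on the log2 scale. This SD is for a difference between single spots and leaves out variation between arrays and cultures. The bound for Btk was 1.01. The spot lay in a block with lost signal on the FTO array, where Btk was the higher one. Its 174 neighbouring probes had a median log2 difference of -0.0046, and 7.47% of them were past 2-fold. That share was 2.27% among the neighbours of the Src spot, and 3.21% of all named genes were past 2-fold. The part of the array surface in the Btk value was not tested.

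Btk probe 2 (A_55_P1953819), for the same transcript, had signals of 8.31 with FTO and 10.5 in the control. It was well above background on neither array, so no fold is given. Its raw net was 23 with FTO and 27 in the control, and it gives no direction to set beside that of probe 1. This spot lay outside the blocks with lost signal. Btk thus had 1 detected spot of 4 spots on both arrays, and its higher value with FTO was seen with 1 of 2 probes.

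Among the probes detected with FTO only, values past 2-fold were common. There were 394 such probes, of which 69.3% were past 2-fold higher, since being detected on 1 array alone already favours a difference.

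Tec, the founding member of the family, was detected by both of its probes, and they gave like values. Tec probe 1 (A_51_P467505, NM_001113460) had signals of 1161 with FTO and 911 in the control, a log2 difference of -0.02 (spot error 0.20). Tec probe 2 (A_55_P2047753) had signals of 499 and 418 and differed by -0.09 on the log2 scale (spot error 0.20). The signal ratio of probe 1 before normalization, 1.27, was that of the median probe, and after normalization both probes differed by less than their spot error. Under the other 4 ways of processing probe 1 lay between -0.08 and -0.0071, and probe 2 between -0.17 and -0.08. Tec is the one of the 3 genes with 2 probes for which both were detected.

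Bmx, a Tec family kinase known from endothelium and the bone marrow, again had 2 probes of which 1 was detected. Bmx probe 1 (A_55_P2162324, NM_009759) had signals of 269 with FTO and 201 in the control, a log2 difference of 0.15 (spot error 0.21). The difference was -0.00091 with 75th percentile scaling and at most 0.17 otherwise, so its sign depends on the scaling. Bmx probe 2 (A_66_P129468) had signals of 10.3 and 8.66 and was well above background on neither array. Txk, the T cell member of the family (A_52_P836852, NM_013698), had signals of 13.9 and 8.81 and was likewise not well above background on either array. Its raw net was 27 with FTO and 34 in the control.

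Syk, the kinase that docks on phosphorylated receptor chains and acts above Btk, was detected on both arrays by its probe (A_55_P1962946, NM_011518). Its signal was 122 with FTO and 110 in the control, and the log2 difference was -0.04 (spot error 0.21). With the other ways of processing it lay between -0.28, with 75th percentile scaling, and 0.04, with normexp. The difference was below 0 with every scaling tried and above 0 with normexp only, and all of these values are within 2-fold.

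**Figure D2:**
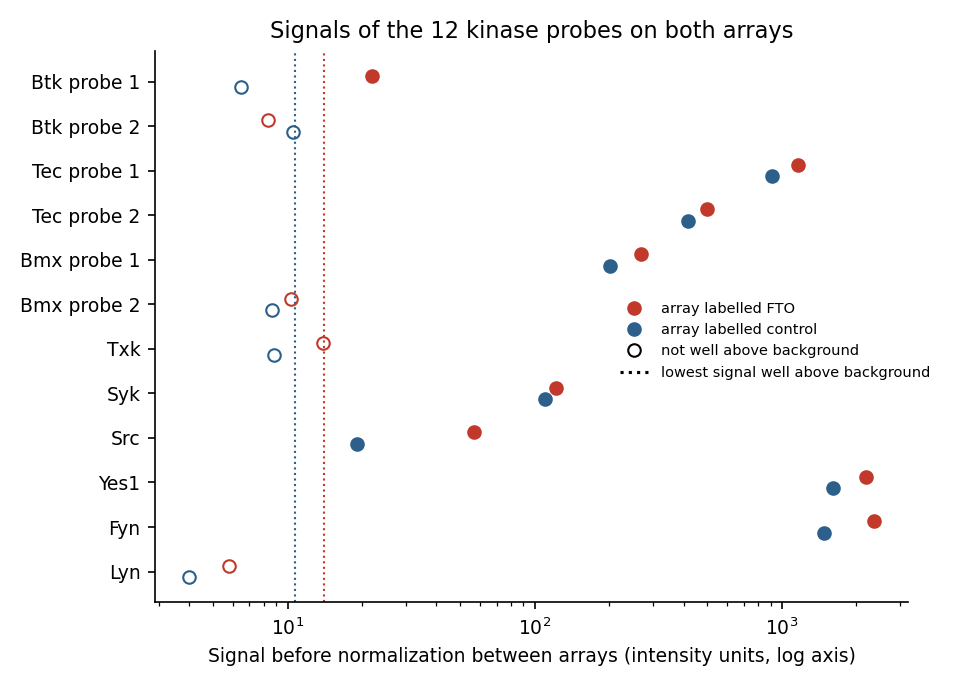
Signal of each of the 12 probes (rows) on the FTO array (red) and the control array (blue), in intensity units before normalization on a log x axis, with open points where the probe was not well above background and dotted lines at the lowest signal well above background of each array. Btk probe 1 is filled with FTO only, Btk probe 2, Bmx probe 2, Txk and Lyn are open on both arrays, and Src is the filled pair with the widest gap.

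Of the Src family members, Src itself stood out. The probe of Src (A_51_P426214, NM_009271), the first tyrosine kinase known as an oncogene product, had a signal of 56.8 with FTO and 19.0 in the control. It was well above background on both arrays. After normalization the values were 5.76 and 4.27 on the log2 scale, a difference of 1.49 (spot error 0.27), or 2.81-fold higher with FTO. Unlike Btk, Src is thus not a bound, although the control signal lies close above the lowest detected signal of 10.7 on that array.

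The raw spots of Src read 117.5 over a background of 35 with FTO and 69 over 30 in the control. The net values were 82.5 and 39.0, a ratio of 2.12 before any scaling between arrays. For comparison, the median probe had 1.27 times the signal on the FTO array before normalization, so part of this ratio is shared by most probes. Combining the spread of repeated spots within each array at a like signal gave an SD of 0.40 for a difference between single spots. The log2 difference is 3.77 times this SD, which leaves out variation between arrays and cultures. The spot of Src lay outside the blocks with lost signal on both arrays. Its 176 neighbouring probes had a median log2 difference of -0.03, and 2.27% of them were past 2-fold. Src had no other probe, so no probe agreement can be given.

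Among the 31935 probes well above background on both arrays, Src ranked 43rd from the top, and 0.517% of these probes were past 2-fold higher. The share depends on the signal, so probes of a like signal are the nearer comparison. Of 3475 probes within 0.5 of the mean log2 signal of Src, 2.30% were past 2-fold higher, and the central 95% of their differences ran from -1.04 to 0.96. Src lay outside this range.

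The size of the Src difference varied with the processing. Its log2 difference was 1.49 in the authors' log2 table, 1.42 with cyclic loess and 1.15 with 75th percentile scaling. With normexp, which here brings another background model, an offset of 50 and median spot intensities at once, it was 0.53, or 1.45-fold. The direction was the same in all 5, and the call past 2-fold was lost with normexp.

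**Figure D3:**
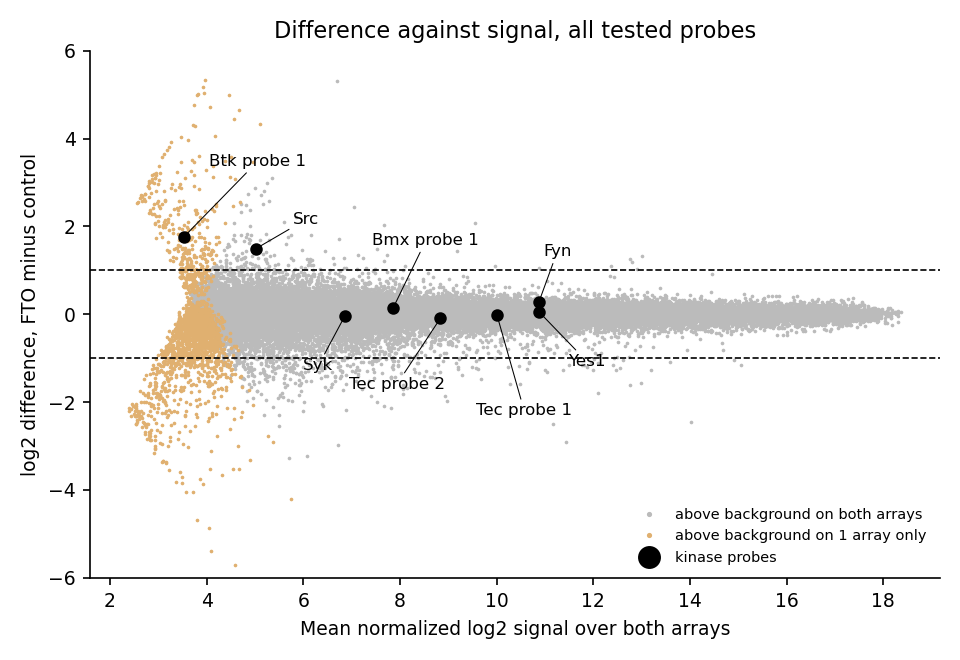
log2 difference, FTO minus control (y axis), against the mean normalized log2 signal over both arrays (x axis) for the 33838 probes detected on either array, gray where on both and tan where on 1 only, with the 8 tested kinase probes in black and dashed lines at 2-fold. Btk lies among the tan probes at 1.77, Src among the gray probes past 2-fold at 1.49, and the other 6 between the lines.

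Yes1 and Fyn, the Src family members found in most tissues, had bright probes and small differences. Yes1 (A_51_P469480, NM_009535) had signals of 2201 with FTO and 1605 in the control, a log2 difference of 0.05 (spot error 0.20). It lay between -0.0016 and 0.05 with the other ways of processing. Fyn (A_66_P138915, NM_001122893) had signals of 2355 and 1484, a log2 difference of 0.28 (spot error 0.20). Fyn was 1.21-fold higher with FTO and stayed between 0.24 and 0.28 with the other ways of processing. These values are above the repeated-spot SD of 0.08, which leaves out variation between arrays and cultures. Its spot lay in a block with lost signal on the FTO array, and the part of that block in the value was not tested.

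Lyn, the Src family kinase of B cells and myeloid cells (A_55_P1958088, NM_001111096), had signals of 5.81 with FTO and 3.99 in the control. It was well above background on neither array, so no fold is given. All 4 undetected probes of the family had raw nets of 19.5 to 34 and signals of 3.99 to 13.9, each below the lowest detected signal of its own array. An undetected probe says that the transcript was not measurable by that probe, not that it is absent. The order of signals between different probes is not an order of transcript levels, because probes bind with different strength. In bulk RNA, more cells with a transcript and more transcript per cell cannot be told apart.

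Taking each gene by its brightest detected probe, 7 of the 9 kinases could be compared, and Txk and Lyn could not. Of the 7, 5 were above 0 and 2 below, with a median log2 difference of 0.15, against 0.01 over all named genes. Without Btk and Src the median was 0.05, and the other 5 genes ran from -0.04 (Syk) to 0.28 (Fyn). Past 2-fold were Btk and Src, both higher, and no kinase was lower. Over all 18507 named genes with a detected probe, 3.21% were past 2-fold, 1.31% higher and 1.90% lower. With a limit of 1.5-fold the kinases past it were again Btk and Src, against 8.49% of all genes.

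The count of 2 depended on the processing. It takes the signals as they stand and not the bounds. With 75th percentile scaling it was again Btk and Src, against 4.70% of all genes. There the bound of Btk was 1.53-fold, so with the bound in place of the signal only Src was past 2-fold. Its value there was 2.22-fold, from 1 spot per array. With normexp no kinase was past 2-fold, against 0.335% of all genes. Where only probes detected on both arrays entered, Src was left, against 1.44% of genes, and where the blocks with lost signal were left out, Src was again the only one, against 2.03% of genes. Btk drops out of these last comparisons by construction, since its detected spot fails both filters. Which of the changes made together with normexp moved the count was not tested.

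**Figure D4:**
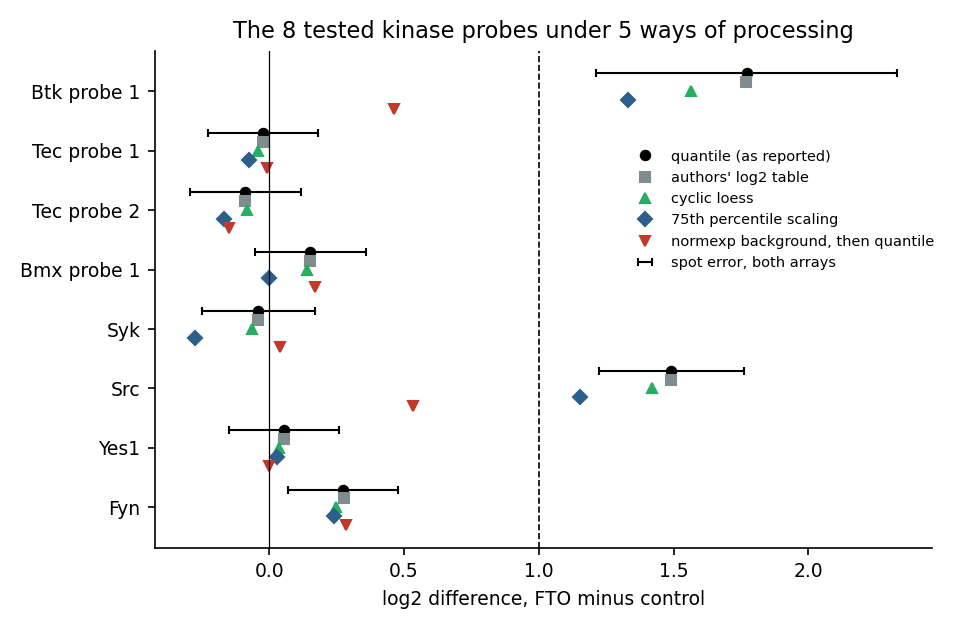
log2 difference, FTO minus control (x axis), of the 8 tested probes (rows) under 5 ways of processing (symbols), with bars for the combined spot error of both arrays around the quantile value and a dashed line at 2-fold. Btk runs from 0.46 to 1.77 and Src from 0.53 to 1.49, the lowest value of each being that with normexp, while the other 6 probes stay between -0.28 and 0.28.

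The remaining kinases of these families, 9 genes with 8 detected on both arrays, gave no call, and their median log2 difference was 0.10. Zap70, the relative of Syk in T cells, had signals of 151 with FTO and 122 in the control with its brighter probe, a difference of 0.10, and 87.2 and 61.0 with its second, a difference of 0.35.

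Of the Src family relatives, Lck, a kinase of T cells, was the lowest at -0.24, with signals of 2869 with FTO and 2583 in the control. Frk had signals of 761 and 492 and a difference of 0.28, Fgr 98.5 and 83.6 and a difference of 0.05. Blk, a B cell kinase, had signals of 15.6 and 14.6 close to background and a difference of 0.09, and Srms had 24.3 and 23.7 and a difference of -0.03. Ptk6 was well above background on neither array. No relative reached the difference of Src, and Blk and Srms, dim like Src in the control, differed by less than their spot errors of 0.41 and 0.30.

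Of 8 genes that switch Src family kinases on and off, all were detected on both arrays and none was past 2-fold, with a median of 0.06. The brightest were Ptpn11, the phosphatase SHP2, with signals of 99477 with FTO and 65246 in the control and a log2 difference of 0.26, and Ptpra, a receptor phosphatase that activates Src, with 31748 and 23522 and a difference of -0.0010. The others, among them the inhibitory kinase Csk, lay between -0.24 and 0.27.

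Of 6 immune receptor and signaling chain genes that feed Syk, 5 were detected on both arrays, with no call and a median of 0.23. Fcer1g, the Fc receptor gamma chain, had signals of 667 with FTO and 660 in the control, a log2 difference of -0.34. Tyrobp, the adaptor DAP12, had 219 and 158, a difference of 0.23. Both spots lay in blocks with lost signal on the FTO array. Cd79a, a B cell receptor chain named after its values were seen, was the lowest, with signals of 28.4 and 49.7 and a difference of -0.91 that ranged from -1.23 to -0.38 with the other ways of processing.

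Of 19 adaptors, lipid enzymes and effectors of Btk and Syk, 17 could be compared and 1 was past 2-fold lower, against 1.90% of all named genes, with a median of 0.05. Blnk, the adaptor that brings Btk to phospholipase C gamma, had signals of 200125 with FTO and 172769 in the control, a log2 difference of 0.05. Gtf2i, a transcription factor that Btk phosphorylates, had 78534 and 54902, a difference of 0.14. The one gene past 2-fold was Pik3ap1, the adaptor BCAP that links the B cell receptor to phosphoinositide 3-kinase. It had signals of 4.65 and 16.5 and was detected in the control only, with a log2 difference of -1.75 on the signals as they stand. Against the lowest detected signal it was 1.19-fold lower with FTO, and its spot lay in a block with lost signal on that array. With normexp its log2 difference was -0.13 and it was not past 2-fold. Inpp5d was detected on neither array, and Ibtk had no named probe.

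The 7 partners of Src at cell adhesions gave no call, with a median of -0.08. Cttn, the actin-binding Src substrate cortactin, had signals of 61791 with FTO and 45072 in the control, a log2 difference of 0.05. Bcar1, the scaffold p130Cas, had 44795 and 30843, a difference of 0.11. The range of the list was -0.30 to 0.22, so none of these genes came near the difference of Src.

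**Figure D5:**
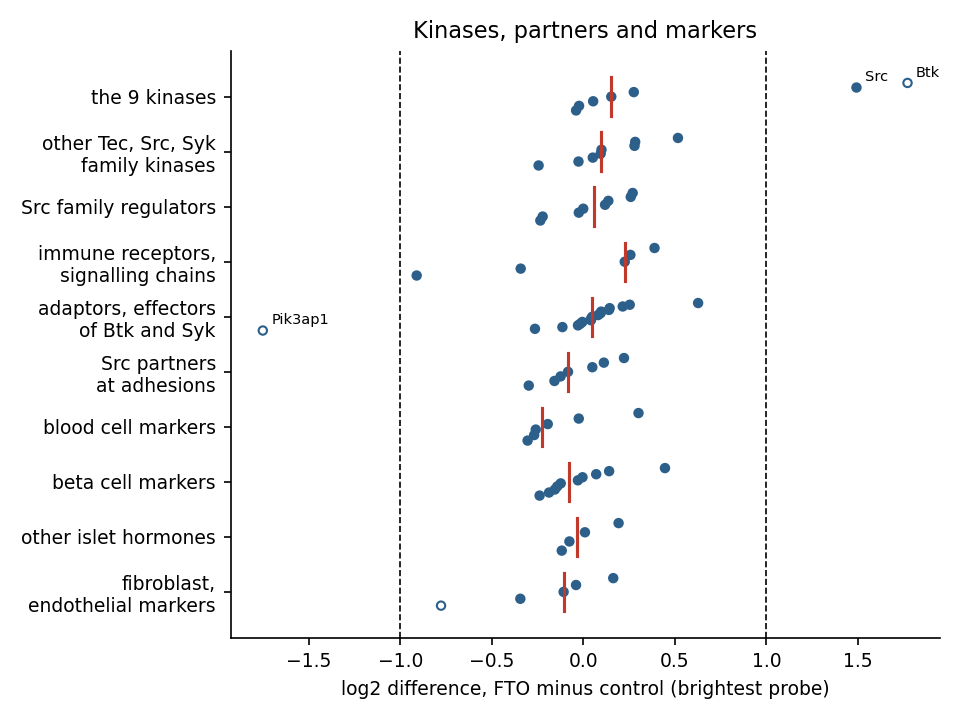
log2 difference, FTO minus control (x axis), of each gene by its brightest tested probe, in rows for the 9 kinases, their relatives, partners and markers, with open points where 1 array alone detected the probe, red bars at the median of each row and dashed lines at 2-fold. Btk and Src lie past the right line, Pik3ap1 past the left, and all other genes between them.

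Several of the kinases are typical of blood cells, so blood cell markers were read beside them. Of 10 markers, 6 were detected on both arrays, Cd3d, Ms4a1 and Lyz2 on neither, and Cd68 had no named probe. Before normalization the summed signal of the 6 was 5870 with FTO and 4182 in the control, most of it from Cd3e. After normalization the median log2 difference was -0.23, with 1 above 0 and 5 below. Cd3e had signals of 3906 and 2388 and a difference of 0.30, Itgam 1426 and 1248 and a difference of -0.19. Ptprc, the marker of all white blood cells, was low with 33.7 and 38.0 and a difference of -0.26. Their part in the signals of Btk, Syk and the other kinases was not tested.

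The other marker lists also gave no call. The 10 beta cell markers had a median of -0.08, with Ins2 at signals of 276722 with FTO and 320363 in the control and a log2 difference of -0.24, and Chga at 273283 and 267310 and a difference of -0.0050. The 4 other islet hormones had a median of -0.03, with Gcg at 257411 and 243558 and Ppy at 14003 and 10872. The 5 fibroblast and endothelial genes had a median of -0.11, with Col1a1 at 515 and 362 and Pecam1 at 296 and 260, and Cdh5 was detected in the control only.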

How the data were processed

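The authors deposited a table of spot intensities for each array, as Feature Extraction 11.0.1.1 wrote them, with background subtracted and no normalization between arrays, and a separate table of log2 values that the authors had quantile normalized. Per the file headers, each spot also has a flag for being well above background and an error estimate. Here control and outlier spots were left out, the 44397 spots gave 39417 probes, log2 values were averaged over repeated spots, and limma 3.58.1 (R 4.3.3) was used for quantile normalization. Python 3.11.15, pandas 2.3.3, numpy 2.4.6 and matplotlib 3.10.9 served for the rest. Averaging, quantile normalization and the 2-fold limit were checked on simulated data with changes in bright probes only. That check did not cover changes in probes as dim as those of Btk and Src, the detection filter, the bounds or the blocks with lost signal.

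A probe was compared where either array had more than 50% of its spots well above background, which held for 33838 probes. With 1 array per condition no test was run, and a gene counted as called where a compared probe was past 2-fold. Where only 1 array detected a probe, the bound sets the brighter value against the higher of the dim value and the lowest detected value. Detection is flagged spot by spot, so an undetected spot can lie above that lowest value and the bound is not strict. The spot error combines the error estimates of both spots on the log2 scale. Technical spread came from 399 probes printed 10 times, using those of like signal, and combines the SDs found within each array. Blocks of 76 rows and 17 columns were taken to have lost signal if 15% or more of the spots of 79 repeated probes were over 0.5 lower on the log2 scale than the median of their probe. Neighbours are probes within 10 rows and 5 columns.

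Gene symbols came from the accession of each probe in RefSeq for GRCm38.p6, which named 27224 probes. The array was designed on an older assembly, so no probe position in the genome is given. Named in the text are all 9 kinases with every probe, the other kinases of these families, the 2 brightest genes of each further list and genes past 2-fold. Some kinases of these families are not reported here by name. Alternatives were 75th percentile scaling, cyclic loess, normexp with an offset of 50 (on median in place of mean spot intensities, which the tables lack), the authors' log2 table, other filters and other probes of a gene. The kinases and lists were chosen with earlier results of these data known.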

Additional observations from a re-analysis of the deposited data

How the results depend on the processing

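The log2 difference of Btk probe 1, 1.77 as reported, was 0.46 with normexp and 1.01 with dim signals raised to the lowest detected signal. It kept its direction with the other processing choices that gave it a value. No value of Btk was left with probes detected on both arrays only or without the blocks that lost signal, and its other probe gives no fold. The number of kinases past 2-fold, 2 as reported, was 0 with normexp, 1 with detection on both arrays and 1 without those blocks, and in both of these last cases it was Src. It was 2 with 75th percentile scaling, cyclic loess, the authors' log2 table, dim signals raised, no filter, and a limit of 1.5-fold. These counts take the signals as they stand. By its bound, Btk was 1.53-fold higher with 75th percentile scaling and 1.80-fold with cyclic loess, which leaves Src alone past 2-fold there. The median over the kinases ran from 0.03 with 75th percentile scaling to 0.28 with no filter on background, which takes in all 9 genes. Scaling by the 75th percentile moved the median of all compared probes by -0.08. Over the 7 other kinase probes and 4 ways of processing, 25 of 28 values stayed within 1 spot error of the reported one. The other 3 were Src with 75th percentile scaling and with normexp, and Syk with 75th percentile scaling. No paired analysis was possible because there was 1 array per condition. No array could be left out for the same reason.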
